A study of Sus scrofa with 6 samples.

Results

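PAX3 and PAX7, the sine oculis homeobox genes such as SIX2 and SIX4, and the EYA and DACH genes form a network of transcription factors and cofactors that acts upstream of the MYOD family in skeletal muscle precursors. The rule for this group named 9 genes, PAX7, PAX3, SIX2, SIX4, EYA1, EYA2, EYA3, EYA4 and DACH1. Of these, 6 (PAX3, SIX2, SIX4, EYA2, EYA3 and DACH1) were matched by Ensembl identifier to a row among the 28266 rows of the expression table. PAX7, EYA1 and EYA4 were not matched and were not analysed here.

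RNA-seq was done on satellite cells of skeletal muscle, the muscle stem cells, from Yorkshire pigs (porcine satellite cells, PSCs). The paper isolated PSCs from 3-day-old males and differentiated them in medium with horse serum. The libraries carry the letter N in their titles, with which the paper marks cells that received negative control (NC) siRNA. Both groups share this treatment, and they differ in the time of differentiation, 24 h (NC24h) or 36 h (NC36h), with 3 libraries each (replicates 4, 5 and 6). For the later group the time field of the labels reads 48 h, but the series title and the paper say 36 h. The label text on RNA extraction names the endometrium, in contrast to the tissue and cell type fields. Nothing in the labels says that replicates came from separate animals, so the p-values measure only the spread between these libraries.

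PAX3 and PAX7 are paired-box transcription factors that mark muscle progenitors in the embryo and satellite cells in adult muscle, respectively. SIX2 and SIX4 belong to the sine oculis family of homeodomain factors, which bind the MEF3 site in the regulatory regions of muscle genes. EYA proteins do not bind DNA themselves. They are recruited by sine oculis factors as coactivators and also carry phosphatase activity, while DACH proteins act as further cofactors of the complex, often in repression.

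The deposited unit is FPKM, in which fragments are divided by gene length and by library depth, so levels of different genes can be set side by side per length. The libraries held between 16340144 and 21844277 fragments in the table. The cells expressed MYOD1, CDH15, NCAM1 and DES, which mark myogenic cells, with mean FPKM between 176 and 1693 at 24 h. Both MYOD1 (316 ± 66.3 at 24 h, 254 ± 7.12 at 36 h, SD, n = 3 each) and MYF5 had lower means at 36 h without passing the test. In contrast, CDH15 and DES were higher at 36 h (log2 change 0.61 and 0.91, limma adjusted p = 0.00693 and 0.00202). NCAM1 had a higher mean at 36 h without passing (log2 change 0.20, limma adjusted p = 0.0547). Among markers of other cells, KDR of endothelium and PTPRC of immune cells were at 0 in every library, while CD14 (2.59 FPKM at 24 h), CD68 (2.30) and PECAM1 (1.31) of the same lists were not. Of the collagen genes in the fibroblast list, COL1A2 had the highest level, 693 ± 72.0 at 24 h and 450 ± 38.2 at 36 h (SD, n = 3 each), and COL6A3 the lowest, 4.90 ± 0.736 and 5.63 ± 0.948.

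SIX2 had the highest level among the 6 members analysed. Ordered by FPKM per length, SIX2 (39.97 ± 2.54 at 24 h) came first, followed by EYA3 (30.5 ± 6.62), SIX4 (13.6 ± 2.19), EYA2 (6.33 ± 0.522), PAX3 (0.435 ± 0.0393) and DACH1 (0.0763 ± 0.102), each as mean ± SD of 3 libraries. At 36 h the order was the same, and in neither group did the libraries of neighbouring genes in this order overlap. The order rests on the gene lengths behind the FPKM values. The recovered length was 900 nucleotides for SIX2, 5527 for EYA3, 3303 for SIX4 and 1609 for EYA2. In RefSeq these genes span 3383, 90448, 11989 and 313108 bases from start to end. Such a span is not a counted length, so it does not check the recovered lengths.

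EYA2 and SIX4 fell between 24 and 36 h, whereas SIX2 and EYA3 did not pass the test. Thus 2 of the 4 members with a mean FPKM of at least 1 were called, both lower at 36 h, where 50.9% of the 14060 genes tested were called, 34.4% lower and 16.5% higher. The test was limma on log2(FPKM + 1) over all genes with Benjamini-Hochberg adjustment and a threshold of 0.05. In EYA2 and SIX4 the groups did not overlap, which held for 63.6% of all genes tested. The members' median log2 change was -0.16, and that of all genes tested was also -0.16. Changes are on the log2(FPKM + 1) scale, which understates the change of genes with low FPKM. In bulk RNA, fewer cells of a type and less RNA per cell cannot be told apart.

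**Figure D1:**
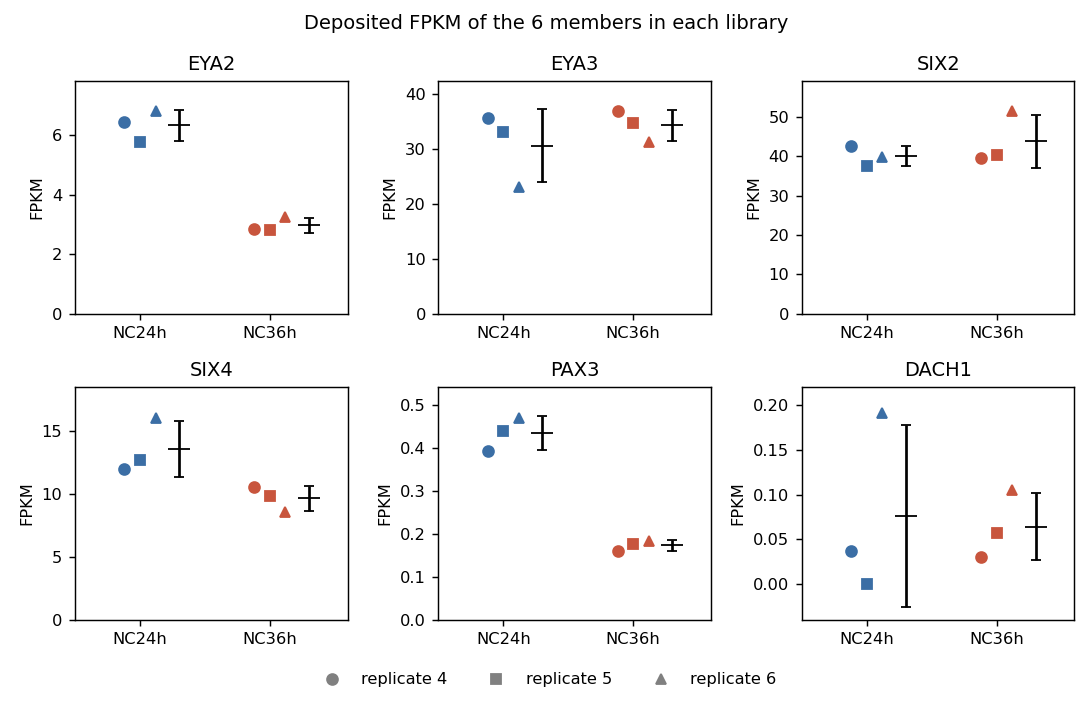
FPKM (y axis, one linear scale per panel) of each measured member in the 3 NC24h and 3 NC36h libraries; markers show the replicate number, and the bar beside each group shows mean ± SD (n = 3). EYA2, SIX4 and PAX3 have all NC36h libraries below all NC24h libraries, while EYA3, SIX2 and DACH1 overlap.

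EYA2 (ENSSSCG00000007453) spans 48930682 to 49243789 of chromosome 17 (Sscrofa11.1, as for all positions here). Its FPKM was 6.43, 5.77 and 6.80 in replicates 4, 5 and 6 at 24 h, against 2.84, 2.81 and 3.24 at 36 h. All libraries at 36 h were below all libraries at 24 h, and replicates were tight within both groups. The mean FPKM fell from 6.33 ± 0.522 to 2.96 ± 0.242 (SD, n = 3 each), from 507 and 288 fragments, and was 2.14 times higher at 24 h. On the log2 scale the change was -0.89 with a standard error of 0.10 (limma adjusted p = 0.00119), or -0.73 relative to the median of all genes. Among all genes tested, 944 (6.71%) had a lower log2 change. Its adjusted p stayed under the threshold in all 15 alternative fits that tested it, from 0.000850 to 0.0103. Its change of -0.89 on the log2(FPKM + 1) scale was smaller in size than 1, the minimum of the fold-change alternative. With 0.1 or 0.01 added to FPKM in place of 1, the change was -1.07 or -1.09.

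EYA3 (ENSSSCG00000003580), the other EYA gene measured, lies on chromosome 6 from 85095409 to 85185856. Its FPKM was 35.6, 33.0 and 23.0 in NC24h replicates 4, 5 and 6, and 36.8, 34.6 and 31.3 in the same order at 36 h. NC24h replicate 6 was the lowest of all libraries, and the other 5 libraries lay within the range from 31.3 to 36.8. The mean was 30.5 ± 6.62 at 24 h and 34.2 ± 2.77 at 36 h (SD, n = 3 each), from 8412 and 11527 fragments. The log2 change of 0.18 did not exceed the spread between replicates (95% interval from -0.21 to 0.56, limma adjusted p = 0.383), and without NC24h replicate 6 it was -0.006.

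Set against EYA3, EYA2 made up a smaller part at 36 h, which follows from the values above. EYA1 and EYA4 were not matched, so the share covers EYA2 and EYA3 only. EYA2 held 15.3%, 14.9% and 22.8% of the summed FPKM of EYA2 and EYA3 in the NC24h libraries, and 7.17%, 7.51% and 9.40% in the NC36h libraries. The groups did not overlap in this share, which does not depend on the scaling of a library. Its mean was 17.7% ± 4.44 at 24 h and 8.03% ± 1.203 at 36 h (SD, n = 3 each), and 15.1% at 24 h without replicate 6. No test is given for the shares. The sum itself was 36.9 ± 6.30 FPKM at 24 h and 37.2 ± 2.56 at 36 h, with overlapping libraries.

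SIX4 (ENSSSCG00000005089), on chromosome 1 from 189670390 to 189682378, had an FPKM of 11.96, 12.7 and 16.1 in replicates 4, 5 and 6 at 24 h, and of 10.5, 9.83 and 8.55 at 36 h in the same order. The groups did not overlap, although NC24h replicate 4 and NC36h replicate 4 were close, and NC24h replicate 6 was the highest library. From 2226 and 1944 fragments, the mean fell from 13.6 ± 2.19 to 9.64 ± 1.01 (SD, n = 3 each). On the log2 scale the change was -0.45 with a standard error of 0.13 (limma adjusted p = 0.0249), or -0.29 relative to the median of all genes. The direction held in all 16 alternative fits, but the call depended on the scaling and on single libraries. With median-ratio scaling the log2 change was -0.29 (limma adjusted p = 0.0832), with quantile normalization it was -0.30 (limma adjusted p = 0.0809), and without NC36h replicate 5 or 6 it was -0.46 or -0.37 (limma adjusted p = 0.0679 or 0.0755).

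SIX2 (ENSSSCG00000008446), on chromosome 3 from 95460046 to 95463428, had an FPKM of 42.6, 37.5 and 39.8 in replicates 4, 5 and 6 at 24 h, and of 39.5, 40.3 and 51.4 at 36 h. Only NC36h replicate 6 lay above the NC24h range, and the remaining libraries of both groups were mixed. From 1791 and 2367 fragments, the mean was 39.97 ± 2.54 at 24 h and 43.7 ± 6.63 at 36 h (SD, n = 3 each). The log2 change of 0.12 did not exceed the spread between replicates (95% interval from -0.15 to 0.39, limma adjusted p = 0.404). Without NC36h replicate 6 it was -0.0003.

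Between SIX2 and SIX4, SIX2 took a larger share at 36 h, which follows from the values above and was not tested. The change of SIX2 itself did not pass the test, and the call of SIX4 depended on the scaling and on single libraries. Of the summed FPKM of SIX2 and SIX4, SIX2 held 78.1%, 74.8% and 71.3% at 24 h and 79.0%, 80.4% and 85.7% at 36 h. The groups did not overlap, with a narrow gap between NC24h replicate 4 and NC36h replicate 4. The mean share was 74.7% ± 3.40 at 24 h and 81.7% ± 3.57 at 36 h (SD, n = 3 each).

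**Figure D2:**
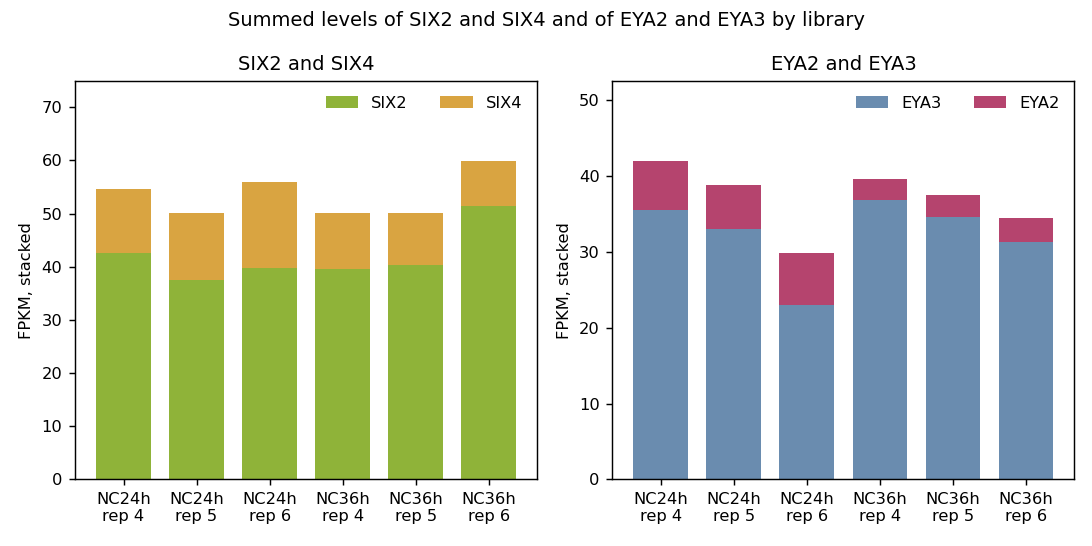
Stacked FPKM (y axis, linear from 0) of SIX2 and SIX4 (left) and of EYA3 and EYA2 (right) in each library. EYA2 is the smaller part of the EYA bars, 14.9% to 22.8% at 24 h and 7.17% to 9.40% at 36 h, and SIX2 is the larger part of every bar on the left.

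PAX3 (ENSSSCG00000028418), on chromosome 15 from 124093803 to 124193041, was expressed at a low level and lay under the FPKM minimum. At 24 h replicates 4, 5 and 6 held 12, 13 and 14 fragments (0.394, 0.440 and 0.472 FPKM), and at 36 h they held 6, 7 and 6 (0.160, 0.177 and 0.185 FPKM). All libraries at 36 h were below all libraries at 24 h, and each lay above the FPKM that 3 fragments give (0.0760 to 0.102). The mean was 0.435 ± 0.0393 at 24 h and 0.174 ± 0.0127 at 36 h (SD, n = 3 each), 2.5 times higher at 24 h, from 39 and 19 fragments. These SDs rest on the spread between 3 libraries, and counting error on so few fragments was not estimated. When no filter was used, PAX3 passed the threshold with a log2 change of -0.29 on the log2(FPKM + 1) scale (limma adjusted p = 0.00584), where 22.4% of 21614 genes were called lower. With limma voom on the recovered fragments, a fit chosen after seeing the data, the log2 change was -1.27 (adjusted p = 0.0150), where 27.3% of 19542 genes were called lower.

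DACH1 (ENSSSCG00000009457), on chromosome 11 from 43765386 to 44187766, was close to absent. At 24 h replicates 4, 5 and 6 held 1, 0 and 5 fragments of it, and at 36 h they held 1, 2 and 3. The 0 in NC24h replicate 5 allows an FPKM of up to 0.115, which covers counting error only. With 6 fragments in either group, no difference was detectable at this depth.

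NC24h replicate 6 stood apart from the other NC24h libraries in SIX4 and EYA3. It was the highest for SIX4 (16.1 FPKM against 11.96 and 12.7) and the lowest for EYA3 (23.0 against 35.6 and 33.0). It was also the highest for EYA2, by a small margin (6.80 FPKM against 6.43 and 5.77). For PAX3 (14 fragments against 12 and 13) and DACH1 (5 against 1 and 0) it was the highest by few fragments. The same library had the highest sum of the proliferation list, 275 FPKM against 103 and 137, and the lowest sum of the differentiation list, 13318 FPKM against 21297 and 19431. At 36 h these sums were between 34.9 and 46.2 for proliferation and between 35815 and 40676 for differentiation. Their part in the differences of the members was not tested. Without NC24h replicate 6, the log2 change of EYA2 was -0.84 and that of SIX4 was -0.33, and both remained past the threshold (limma adjusted p = 0.00135 and 0.0316).

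**Figure D3:**
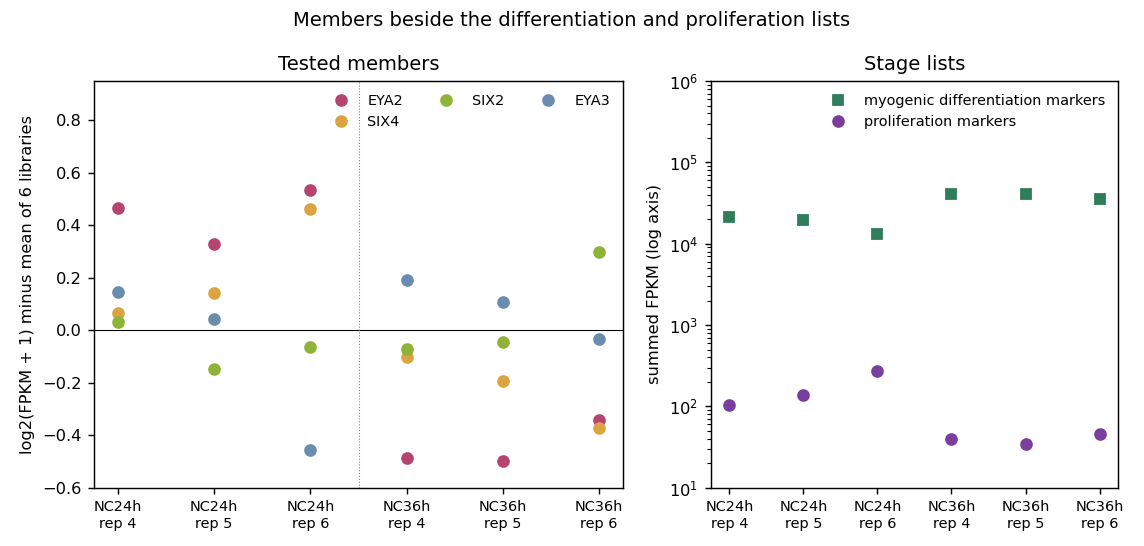
Left, log2(FPKM + 1) of each tested member minus its mean over the 6 libraries (y axis) by library. Right, summed FPKM (log axis) of 16 proliferation and 19 differentiation genes by library. NC24h replicate 6 has the highest proliferation sum (275) and, among the NC24h libraries, the highest SIX4 and EYA2 and the lowest EYA3.

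Among genes that PAX3 and PAX7 are known to regulate or to need as partners, the changes went in both directions. Of the target list, 8 of 12 genes were tested, 3 were higher and 2 lower at 36 h (median log2 change -0.38, against -0.16 for all genes). MET, the receptor for hepatocyte growth factor, fell from 39.5 ± 14.2 to 15.3 ± 0.611 FPKM (SD, n = 3 each), a log2 change of -1.26 (limma adjusted p = 0.00424), and FGFR4, a fibroblast growth factor receptor, fell by 0.76 on the log2 scale (limma adjusted p = 0.00601). MSC, a bHLH repressor of myogenic factors, rose from 28.3 ± 7.39 to 60.6 ± 2.93 FPKM (log2 change 1.103, limma adjusted p = 0.00384). LBX1, a homeobox gene of migrating limb muscle precursors, rose by 0.86 (limma adjusted p = 0.0161), but did not pass without NC24h replicate 5, NC36h replicate 5 or NC36h replicate 6 (limma adjusted p from 0.0522 to 0.0527). DMRT2 rose by 0.56 (limma adjusted p = 0.00979).

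Most cofactors of PAX3 and PAX7 did not pass the test. Of 8 genes tested of 9, 0 were higher and 2 lower (median log2 change -0.10), and none of the 8 was higher at an unadjusted limma p under 0.05. KMT2A, a histone H3 lysine 4 methyltransferase, fell from 12.4 ± 1.37 to 8.08 ± 0.582 FPKM (log2 change -0.56, limma adjusted p = 0.00444). RBBP5, a shared subunit of such methyltransferase complexes, fell by 0.47 (limma adjusted p = 0.00988), or by 0.31 with median-ratio scaling (limma adjusted p = 0.0356). CARM1, which methylates PAX7, had a log2 change of -0.08 (limma adjusted p = 0.304).

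Of the list of genes regulated by sine oculis factors and EYA proteins, 5 of 10 genes were tested, 3 were higher and 1 lower (median log2 change 0.21). MYF6, a late factor of the MYOD family, had an FPKM of 3.10, 3.11 and 3.37 in the NC24h libraries and of 8.50, 7.67 and 6.66 in the NC36h libraries (log2 change 1.03, limma adjusted p = 0.000969). ENO3, the muscle enolase, rose from 207 ± 44.1 to 384 ± 77.6 FPKM (log2 change 0.89, limma adjusted p = 0.0118). In contrast, EZR, which links the membrane to actin, fell by 0.36 on the log2 scale (limma adjusted p = 0.00606), or by 0.19 with median-ratio scaling (limma adjusted p = 0.0490). The rise of SLC12A2, a cotransporter, was 0.21 (limma adjusted p = 0.0302), and 0.38 with median-ratio scaling (limma adjusted p = 0.00437). Its call, though not the direction, was lost without NC24h replicate 4 or 5, without NC36h replicate 5 or 6 and without the trend in the variance (log2 changes from 0.17 to 0.21, limma adjusted p from 0.0507 to 0.121).

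**Figure D4:**
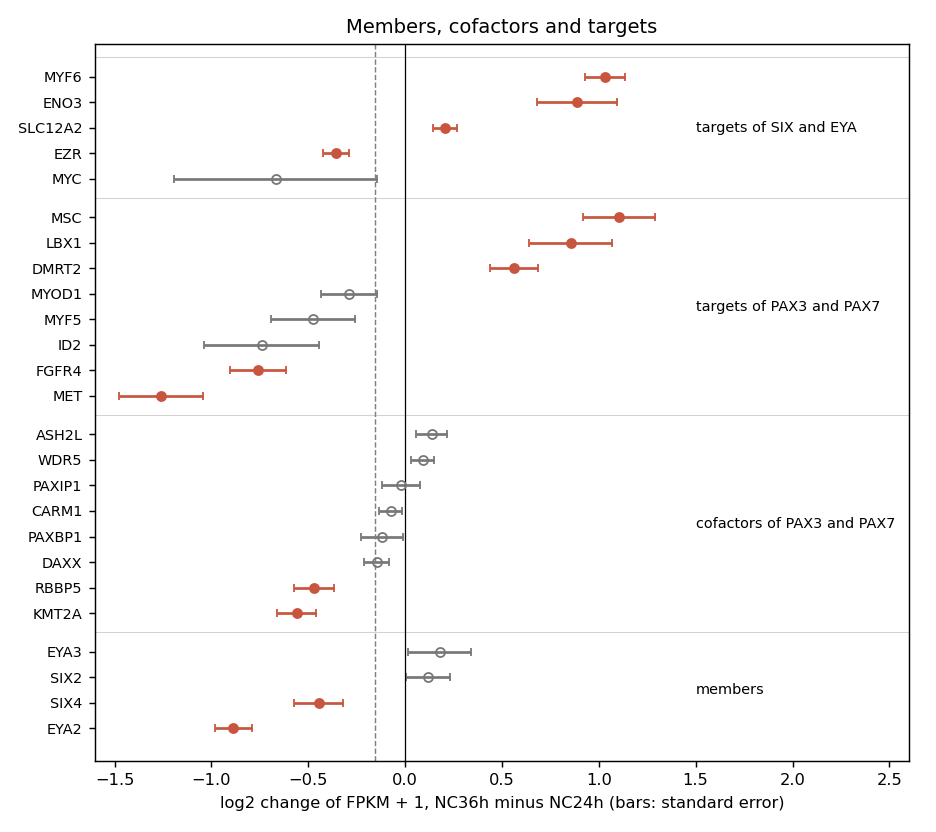
log2 change of FPKM + 1 between NC24h and NC36h (x axis, bars show the standard error) for the tested members and for the lists of cofactors and targets. Filled red points have a limma adjusted p under 0.05, open grey points do not, the solid line marks no change and the dashed line the median of all genes (-0.16); EYA2 is the lowest of the members at -0.89, and MSC and MYF6 are the highest of the targets at 1.103 and 1.03.

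The satellite cell marker list holds surface proteins, Notch genes and other genes, such as MYF5, that are used to identify these cells. All 15 genes with a row were tested, and 4 were higher and 7 lower (median log2 change -0.45). CAV1, a caveolar protein, fell by 1.204 and MET by 1.26, while CHODL rose by 2.88 and CALCR, the calcitonin receptor that marks quiescent satellite cells, by 1.70 (limma adjusted p from 0.000752 to 0.00424). CALCR started from 1.57 ± 0.608 FPKM and CHODL from 1.69 ± 0.840 (SD, n = 3 each). In the differentiation list 16 of 19 tested genes were higher and 0 lower, also at an unadjusted limma p under 0.05, with log2 changes of 2.61 for MYH3 (embryonic myosin heavy chain) and 2.37 for ACTA1 (skeletal actin). In the proliferation list 11 of 14 were lower and 0 higher, also at an unadjusted p under 0.05, with -2.62 for CCNB1 (cyclin B1).

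Markers of other cell types were also compared. Of the fibroblast list, 7 of 11 tested genes passed, 3 higher and 4 lower, and the summed FPKM was between 1026 and 1108 at 24 h and between 915 and 1138 at 36 h. COL1A2 and COL3A1 made up most of this sum in every library, so it says little about the other genes listed. COL1A2 and DCN fell (log2 change -0.62 and -1.48, limma adjusted p = 0.00365 and 0.000640), while COL3A1 rose by 0.87 (limma adjusted p = 0.00446). PDGFRA and FBLN1 of the fibroblast list lay under the FPKM minimum, with mean FPKM of 0.286 and 0.0362 over all libraries. PDGFRA ranged from 0.321 to 0.680 FPKM in the NC24h libraries and from 0.0188 to 0.131 in the NC36h libraries. Only 87 fragments of it were recovered in total. Of the pericyte and smooth muscle list, 3 of 5 were lower, with MCAM at -1.02 (limma adjusted p = 0.00118), and the sum was between 1196 and 1673 at 24 h and between 1104 and 1258 at 36 h. ACTA2 made up most of this sum, with 961 ± 121 FPKM at 24 h and 989 ± 57.6 at 36 h (log2 change 0.05, limma adjusted p = 0.737). MYH11 and KCNJ8 of the same list were near absent, with mean FPKM of 0.0042 and 0.077 over all libraries. Immune markers summed to between 4.50 and 5.72 FPKM at 24 h and between 1.78 and 3.13 at 36 h, without overlap. For comparison, the groups did not overlap in 63.6% of all genes tested. CD14 and CD68 made up most of the immune sum, from 356 and 187 fragments in all libraries, so it says little about the other immune genes listed. Of the 2 immune genes tested, CD14 fell from 2.59 ± 0.615 to 1.18 ± 0.232 FPKM (SD, n = 3 each, log2 change -0.71, limma adjusted p = 0.0103), and CD68 had a log2 change of -0.56 (limma adjusted p = 0.0523). Endothelial markers summed to between 1.57 and 1.88 FPKM at 24 h and between 1.247 and 2.11 at 36 h, and the 1 gene tested, PECAM1, had a log2 change of 0.04 (limma adjusted p = 0.846). The part of these cells in the members' differences was not tested.

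The genes most like each member were found by the root mean square distance between mean-centred log2(FPKM + 1) values over the 6 libraries, as a description. Nearest to EYA2 were VPS13A (0.039), SLC35A1 (0.041) and MTA3 (0.042), all lower at 36 h by 0.86 on the log2 scale. Nearest to SIX4 were PFKM (0.018), NSD3 (0.020) and TBC1D2B (0.043), with log2 changes between -0.49 and -0.44. SIX2 was most like NEK8 (0.047), CHID1 (0.054) and TRMT2A (0.054), and EYA3 was close to SSX2IP (0.037) and ADORA1 (0.049). Among the tested members EYA2 and EYA3 were the least alike, at 0.59.

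**Figure D5:**
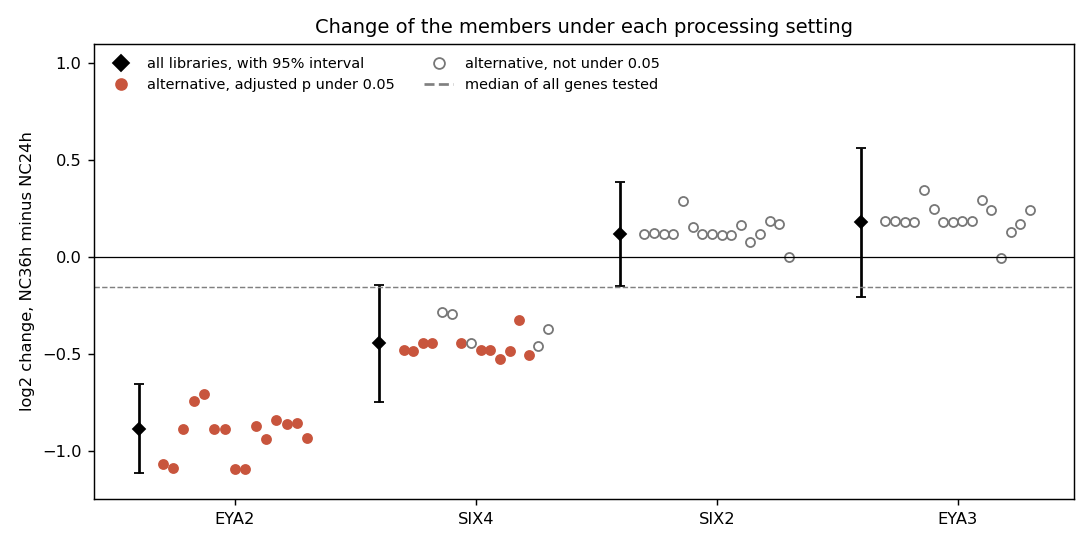
log2 change between NC24h and NC36h (y axis) of the tested members with all libraries (diamond, 95% interval) and under each processing alternative (circles, filled where the adjusted p is under 0.05). The dashed line marks the median of all genes with all libraries (-0.16). Diamonds and dashed line are on the log2(FPKM + 1) scale. Circles with a value other than 1 added to FPKM, and those of voom, are on other scales. All circles of EYA2 are filled and lie between -1.10 and -0.71; those of SIX4 lie between -0.52 and -0.29 and some are open.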

How the data were processed

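The deposited unit is FPKM, for each of the 6 libraries in a single table. According to the paper's methods, the authors made it from paired-end Illumina reads with HISAT2 (build Sscrofa11.1), StringTie and HTSeq, whereas the submitters' processing notes name TopHat2, Cufflinks and HTSeq. Strandedness and the handling of shared reads are not given in the sources used here. Of 25322 Ensembl identifiers 11804 had a symbol, and positions were taken from the RefSeq gene table of this build.

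Genes whose FPKM averaged 1 or more entered a two-sided limma test (version 3.58.1, R 4.3.3) of log2(FPKM + 1) using lmFit and the trended eBayes, with Benjamini-Hochberg adjustment over all of them. Whole fragments were recovered from the FPKM steps for 99.99% of 19543 genes above 0 in at least 3 libraries (tolerance 0.0005); fragments sharing a common factor would be recovered as too few. They give the depth behind each value and enter limma voom as an alternative. Both steps were tested on simulated data. The limma simulation held no difference in scaling between libraries and far fewer changed genes than were called here, so it does not cover those features.

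The members and the lists were chosen with earlier results of these data known. Named genes are the members, up to 4 per list with the largest change among called genes without overlap, the 3 highest genes of other cell types and the 3 genes nearest to each member. DMRT2, CARM1, MYOD1, MYF5, CDH15, NCAM1, DES, KDR, PTPRC and COL6A3 were added after their values were seen. So were PDGFRA, FBLN1, MYH11, KCNJ8, SIX6, PAX1 and PAX2. Some genes that the rule names are not reported here. Alternatives were other pseudocounts, filters, scalings and variance priors, the replicate block, voom, a fold-change threshold and leaving out each library.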

Additional observations from a re-analysis of the deposited data

How the results depend on the processing

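Of the members, 2 were called with all libraries. It was 1 under either other scaling (median-ratio or quantile) and with the replicate block, where EYA2 was called and SIX4 was not, and 1 with a mean FPKM of at least 5, which leaves out EYA2. A minimum change of 1 on the log2(FPKM + 1) scale left 0 members, 1176 of 7156 genes and 31 of 58 genes in the other lists. EYA2 was at -0.89 on that scale, although its mean FPKM was 2.14 times higher at 24 h. Leaving out each library gave 1 to 2 members, and it was 1 without NC36h replicate 5 and without NC36h replicate 6. Replicate numbers were not taken to pair the libraries, since deviations of same-numbered libraries from their group means correlated at 0.15, -0.02 and 0.18; with the replicate block, SIX4 had an adjusted p of 0.0527 and 7034 genes were called. Of the called genes 32.4% were higher in the FPKM as given, 51.8% after median-ratio scaling (6503 genes) and 46.2% with quantile normalization (6581 genes), and the median log2 change of all genes moved from -0.16 to -0.006 with median-ratio scaling. Changes near 0 turned sign. Without one library each, SIX2 ranged from -0.000346 to 0.18, EYA3 from -0.00588 to 0.30, PECAM1 from -0.0474 to 0.16 and ACTA2 from -0.0353 to 0.14. With voom and no filter, DACH1 was at 0.25 and ESAM at -0.00911. The cause of these shifts was not tested. Depth limits PAX3 and DACH1, with 58 and 12 fragments in all libraries.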

Other observations

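Further PAX genes were little expressed. PAX6, an eye and pancreas regulator, had an FPKM of 1.22 ± 0.217 at 24 h and 0.889 ± 0.0630 at 36 h (SD, n = 3 each), a log2 change of -0.23 (limma adjusted p = 0.175). PAX9, which acts in the pharyngeal pouches and teeth, lay under the FPKM minimum, with 0.320 ± 0.0931 and 0.607 ± 0.0956 FPKM in the respective groups. PAX4, a pancreas regulator, was also under it, with 0.220 ± 0.103 and 0.0369 ± 0.0324 FPKM, from only 10 and 2 fragments. The groups did not overlap in any of these 3 genes, lower at 36 h for PAX6 and PAX4 and higher for PAX9. Of all genes tested, which include PAX6 but not PAX9 or PAX4, 63.6% did not overlap. In SIX6, PAX1 and PAX2, the remaining genes of this list with a row, the groups overlapped. PAX6, PAX9 and PAX4 were picked after their values were seen.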
